A study of Mus musculus with 12 samples.

Results

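The insulin-like growth factor genes described here are 10 of the 17922 genes in the deposited expression table: the ligand genes Igf1 and Igf2, the receptor genes Igf1r and Igf2r, and the binding protein genes Igfbp2, Igfbp3, Igfbp4, Igfbp5, Igfbp6 and Igfbp7. They were taken by gene symbol, and all 10 were found. RNA-seq of oligo(dT)-selected RNA was performed on chondrocytes (cartilage cells) from mouse ribs, which were released with collagenase and kept in serum-containing culture until the next day. There were 4 groups of 3 samples. LDH knockouts were taken at P5 and carried Col2-Cre, a recombinase driven by a collagen II promoter that is active in cartilage cells, with Ldha(fl/fl) and Ldhb+/-. Acly knockouts were taken at E18.5 and carried Col2-Cre with Acly(fl/fl). LDH controls (P5) and Acly controls (E18.5) were littermates of the respective knockouts, and their alleles are not given in the sources used here. The strain of all mice was mixed, mainly C57BL/6. The deletions addressed reduced glycolysis and a reduced cytoplasmic supply of acetyl-CoA. The labels do not say whether the 3 samples of a group came from separate animals. The p-values thus measure the spread between these samples, which may be technical at least in part. Y-linked expression, given below, differed strongly inside the LDH controls, the Acly knockouts and the Acly controls. In these groups the samples were therefore not all from the same animal. In the LDH knockouts it was low throughout, and whether every sample was a separate animal was not tested.

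Insulin-like growth factors are small secreted proteins related to insulin that promote growth of cartilage and many other tissues. Both ligands signal through the tyrosine kinase receptor encoded by Igf1r, whereas the receptor encoded by Igf2r takes IGF-II into the cell for degradation. Igf2 is the main fetal ligand gene and is imprinted in the mouse, being read from the paternal copy, while Igf2r is read from the maternal copy in most tissues. The binding proteins hold the ligands in the extracellular space and can block or prolong their action.

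Library totals ranged from 26362407 to 28154143 expected counts, and a floor of 3 counts corresponded to 0.107 to 0.114 CPM (counts scaled to a common library total). This floor covers counting error only. Levels are given as CPM with TMM scaling of all 12 samples together, and differences as log2 fold change ± standard error (SE), unless stated otherwise. Ldha was at 91.9 ± 7.01 CPM in the LDH knockouts against 896 ± 51.1 CPM (SD, n = 3) in controls. Ldhb was at 16.0 ± 1.15 CPM in these knockouts and 12.4 ± 0.609 CPM in controls. It was thus higher without overlap in the Ldhb+/- knockouts, and did not pass (log2 fold change of 0.37, edgeR adjusted p of 0.115). Acly was at 69.7 ± 18.7 CPM in the Acly knockouts against 187 ± 5.07 CPM in controls. Cartilage markers were abundant, with mean levels of Col2a1 between 5466 and 19560 CPM in the 4 groups, although Matn1 was under the floor in LDH controls at 0.0901 CPM. On the first principal component Acly knockout replicate 2 lay at 35.4, while the 5 remaining E18.5 samples lay at 60.4 to 70.7. Summed over 4 Y-linked genes, expression was at most 0.0367 CPM in the LDH knockouts against 93.0, 102 and 0.590 CPM in LDH control replicates 1 to 3. It was 0.0755, 74.3 and 82.8 CPM in the Acly knockouts against 0.375, 121 and 2.83 CPM in Acly controls. These sums are without TMM scaling.

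Promoter stretches are shown for Igf2, Igf1r and Igfbp7, because these are the 3 members whose knockout and control values did not overlap in at least 1 knockout comparison. Each is the 100 bases before an annotated start, 5′ to 3′ on the gene's strand, from the RefSeq promoter table of GRCm38.p6. Capitals mark the GC box GGGCGG, searched on both strands and therefore also as CCGCCC. The Igf2 windows lie at chr7:142666817-142666916 and chr7:142657497-142657596 on the minus strand, at its most upstream and most downstream annotated starts. The windows of the other two Igf2 starts overlap annotated exons and are not shown. The Igf1r window lies at chr7:67952157-67952256 on the plus strand and the Igfbp7 window at chr5:77408046-77408145 on the minus strand. In a second annotation, GENCODE, transcripts held the bases just after both shown Igf2 starts. They did not hold those after the Igf1r and Igfbp7 starts, so the exact starts of these genes are uncertain.
Igf2, most upstream start: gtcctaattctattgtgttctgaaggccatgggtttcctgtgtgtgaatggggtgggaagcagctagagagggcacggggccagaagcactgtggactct
Igf2, most downstream start: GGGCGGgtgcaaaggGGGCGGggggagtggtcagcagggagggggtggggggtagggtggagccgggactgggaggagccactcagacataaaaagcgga
Igf1r: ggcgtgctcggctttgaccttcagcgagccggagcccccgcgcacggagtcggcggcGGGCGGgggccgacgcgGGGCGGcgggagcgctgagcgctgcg
Igfbp7: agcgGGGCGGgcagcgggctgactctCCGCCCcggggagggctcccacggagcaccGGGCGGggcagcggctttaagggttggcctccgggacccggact
The Igfbp7 window held 3 GC boxes and was 77.0% G and C. The Igf1r window held 2 boxes, 19 CpG dinucleotides and 81.0% G and C. The Igf2 windows held 2 boxes at the downstream start and 0 at the upstream start, where G and C made up 54.0% of the bases. Over all 14 windows of the 10 members, 6 held a GC box, against 24.7% of the 32851 windows of all genes in the table. A TATA box spelled TATAAA was found in 1 of the 14, that of Igfbp4, against 5.56% of all windows. These matches describe letters only, and counts per gene do not show which Igf2 start was used.

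Levels of different genes were compared as the deposited TPM values (transcript counts scaled by length and library), which are per transcript length. Igf2 ranked first in all 4 groups, with means of 778 ± 48.6 TPM in LDH controls, 1078 ± 117 TPM in LDH knockouts, 2567 ± 148 TPM in Acly controls and 2950 ± 262 TPM in Acly knockouts (SD, n = 3). It made up 59.5% to 70.8% of the summed TPM of the 10 genes, as group means. Igf1 was far lower, at 0.747 ± 0.340 and 9.63 ± 2.83 TPM in LDH and Acly controls, so that Igf2 exceeded it 1175 ± 438 times and 284 ± 96.0 times. The clearance receptor gene Igf2r exceeded the signalling receptor gene Igf1r by 4.57 ± 0.489 times in LDH controls and 5.45 ± 0.381 times in Acly controls.

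Igfbp4, whose product binds both ligands and is cleaved by the protease PAPP-A, was the second highest member in every group, followed by Igfbp7, whose product binds insulin-like growth factors only weakly. In LDH controls Igfbp4 was at 284 ± 46.7 TPM and Igfbp7 at 135 ± 19.1 TPM, and their ranges overlapped only in LDH knockouts among the 4 groups. At P5 the next members in order were Igf2r, Igfbp6, Igfbp5, Igf1r, Igfbp3, Igf1 and Igfbp2. In LDH controls the sample ranges of Igfbp6 and Igfbp5, of Igf1r and Igfbp3, and of Igf1 and Igfbp2 overlapped. At E18.5 the order after Igfbp7 was Igfbp5, Igfbp6, Igf2r, Igfbp3, Igf1r, Igf1 and Igfbp2, and in Acly controls the ranges of neighbours overlapped only for Igfbp5 and Igfbp6. Both knockouts kept the order of their controls.

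The 6 binding protein genes summed to 469 ± 29.5 TPM in LDH controls and 1216 ± 70.3 TPM in Acly controls. Igfbp4 held 60.2% ± 6.01 of that sum in LDH controls and 47.3% ± 2.70 in Acly controls. Igfbp5, whose product attaches to extracellular matrix, held 3.62% ± 1.17 and 10.8% ± 1.09, and Igfbp6, whose product prefers IGF-II, held 5.03% ± 0.716 and 9.32% ± 0.722. Igfbp7 held nearly equal shares, at 29.0% ± 5.58 and 29.0% ± 0.580. In the stacked plot of these genes the E18.5 samples stand above the P5 samples, and Acly knockout replicate 2, at 884 TPM, is the lowest of its age.

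**Figure D1:**
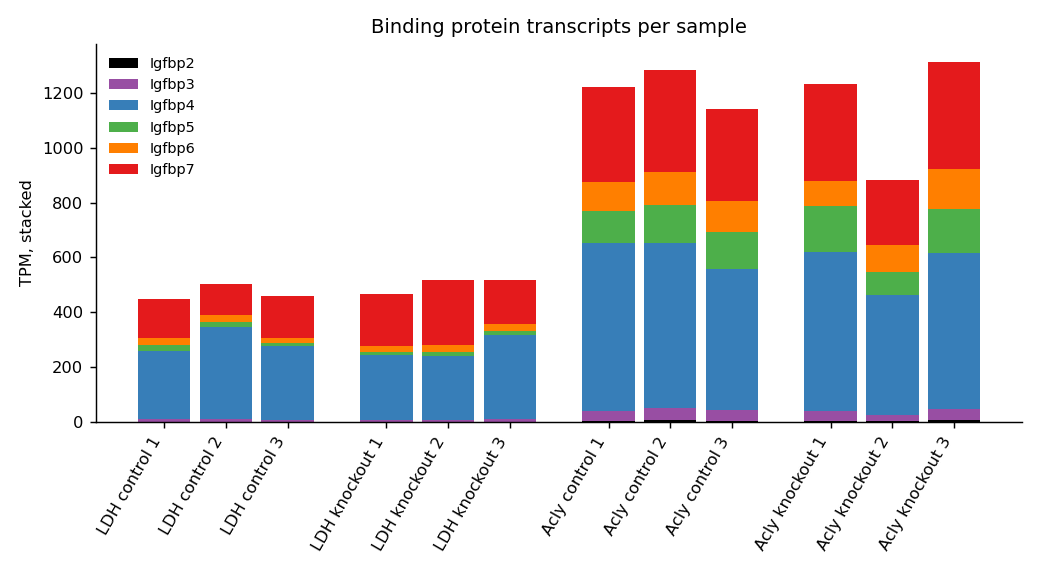
Summed TPM of 6 binding protein genes in each of the 12 samples (y axis, TPM, stacked by gene; x axis, samples by group). The 6 LDH-set samples lie between 447 and 518 TPM and the 6 Acly-set samples between 884 and 1313 TPM.

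Acly controls were compared with LDH controls to show how the family differed between the sets, in which age, mouse line and any library batch cannot be told apart. All 10 members were higher in Acly controls (E18.5) than in LDH controls (P5), and none of the 10 overlapped between the groups. All 10 passed an adjusted p of 0.05 in edgeR's quasi-likelihood test, whereas 29.4% of the 14251 tested genes passed in that direction and 34.4% were higher without overlap. The median log2 difference was 1.72 over the members and 0.02 over all genes. Without TMM scaling the median of all genes shifted to 0.19, and all 10 members still passed as higher.

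The ligand gene Igf1 had the largest difference among the members. It was at 24.2, 41.4 and 35.5 CPM in Acly control replicates 1 to 3 and 4.41, 1.84 and 2.61 CPM in LDH control replicates 1 to 3. The log2 difference was 3.51 with a standard error of 0.38 (edgeR adjusted p of 6.73e-06), an 11.4-fold higher level at E18.5. Igf2 was at 4451, 4200 and 4215 CPM against 1470, 1431 and 1520 CPM, with little spread inside either group. Its log2 difference was 1.55 with a standard error of 0.09 (edgeR adjusted p of 7.08e-08), and it ranked 18 by p among all tested genes.

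Among binding protein genes, Igfbp2 and Igfbp5, which are neighbours on mouse chromosome 1, showed similar differences of 2.88 and 2.79 on the log2 scale, with standard errors of 0.34 and 0.23. Igfbp5 was at 354, 389 and 393 CPM in Acly controls and 71.4, 51.8 and 41.8 CPM in LDH controls. Igfbp2 was scarce in both, at 2.73 ± 0.394 and 0.370 ± 0.191 CPM (SD, n = 3). Igfbp6 and Igfbp3 differed by 2.10 and 1.90 (log2), a 4.28-fold and a 3.73-fold higher level in Acly controls. Igfbp3 encodes the main carrier of these factors in blood. Igfbp7 and Igfbp4 differed less, by 1.21 and 0.86 (log2), with standard errors of 0.18 and 0.13. The edgeR adjusted p of the 6 binding protein genes lay between 4.25e-07 and 1.02e-04.

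The receptor genes differed least. Igf2r was at 345 ± 24.4 against 236 ± 25.8 CPM, a log2 difference of 0.55 with a standard error of 0.12 (edgeR adjusted p of 0.00128). Igf1r was at 87.3, 86.0 and 81.0 CPM in Acly controls and 71.2, 74.5 and 60.8 CPM in LDH controls. Its log2 difference was 0.31 with a standard error of 0.10 (edgeR adjusted p of 0.0151), and without LDH control replicate 3 it was 0.22 and did not pass (adjusted p of 0.0732). Ligand and binding protein genes thus spanned log2 differences of 0.86 to 3.51, and receptor genes 0.31 and 0.55.

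Summed markers of 8 other cell types were also higher in Acly controls without overlap. The 12 cartilage markers summed to 8264 to 8974 CPM in Acly controls against 10736 to 12476 CPM in LDH controls. Yet 7 of them passed as higher and only 1 as lower, Col2a1, at 5466 against 9659 CPM. Sums of the 8 hypertrophic cartilage markers overlapped, with 6 passing as higher and 1 as lower. The summed level of 12 fibroblast and perichondrium markers was 2687 to 3239 CPM in Acly controls and 612 to 771 CPM in LDH controls, and 9 of the 12 passed as higher. The 11 skeletal muscle markers summed to 357 to 463 against 36.2 to 62.8 CPM, and the 8 endothelial markers to 101 to 120 against 13.6 to 18.6 CPM, with all of them passing as higher. The 8 markers of macrophages and other blood cells summed to 139 to 160 against 75.1 to 124 CPM, with 6 passing as higher and 1 as lower. Bone-forming cell markers summed to 1064 to 1322 against 159.5 to 280 CPM, with Mepe at 0 in LDH controls, and pericyte and smooth muscle markers to 412 to 461 against 338 to 379 CPM. Fat cell markers summed to 40.2 to 76.6 against 21.8 to 24.3 CPM, with 8 of 9 tested passing as higher and Lep at 0 in Acly controls, and red blood cell markers to 90.5 to 131 against 29.3 to 44.7 CPM, with 4 of 5 higher. Apart from Mepe and Lep, none of these markers was at 0 in all samples of a control group. The part of these cells in the differences above was not tested, and in bulk samples fewer cells of a type and less RNA per cell cannot be told apart.

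**Figure D2:**
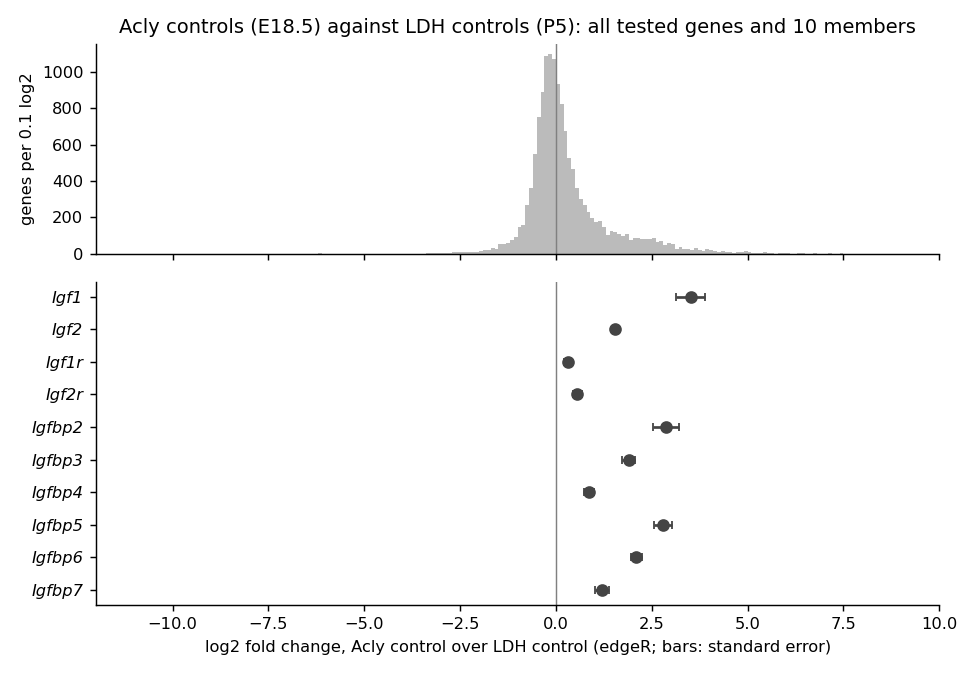
Log2 fold change of Acly controls over LDH controls (x axis): the upper panel counts all 14251 tested genes per 0.1 log2 (y axis), and the lower panel shows the 10 members with standard errors. All 10 members lie right of 0, from 0.31 for Igf1r to 3.51 for Igf1.

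In LDH knockouts at P5, Igf2 was higher than in controls, while the binding protein genes Igfbp3, Igfbp4, Igfbp5 and Igfbp6 overlapped with controls. By edgeR 1 of the 9 tested members passed as higher and 0 as lower, where 1.43% and 1.07% of 13321 genes passed in those directions (2.49% in all). At an unadjusted p under 0.05 there were 3 members, where 19.6% of all genes had such a p, and with DESeq2 2 members passed, where 6.38% of all genes did. Of the 9, 3 did not overlap between the groups, all 3 of them higher (Igf2, Igf1r and Igfbp7), where 24.3% of all genes did not overlap in either direction. The median log2 fold change was 0.06 over the 9 members and 0.01 over all genes.

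Igf2 was at 1860, 2207 and 2016 CPM in LDH knockout replicates 1 to 3, while it stood at 1470, 1431 and 1520 CPM in control replicates 1 to 3. Every knockout exceeded every control. The difference was 0.46 ± 0.09 (log2 ± SE; edgeR adjusted p of 0.0351), which is a 1.38-fold higher level. The two-sided exact permutation p was 0.1, the smallest that 3 against 3 samples allow. The call was lost when any library other than knockout replicate 3 was left out. The adjusted p was then 0.0727 and 0.111 without knockout replicates 1 and 2, and 0.109, 0.0958 and 0.0668 without control replicates 1 to 3. Over these fits, and that without knockout replicate 3, the fold change stayed between 0.40 and 0.52 (log2). With the Y-linked signal as a covariate the fold change was 0.38 with an adjusted p of 0.372. LDH control replicate 3, whose Y-linked signal was 0.590 CPM, had an Igf2 level of 1520 CPM, below all 3 knockouts. The signal was low in all 3 knockouts and in this 1 control, and the part of sex in the Igf2 value was not tested. On FPKM values without a filter on low values, tested with limma, the call was lost as well (0.48, adjusted p of 0.133).

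Of the cartilage markers, 6 of 11 tested rose beside Igf2 in this comparison. The 12 genes of that list summed to 19526 to 29417 CPM in the LDH knockouts against 10736 to 12476 CPM in controls. Fibroblast and perichondrium markers summed to 452 to 534 against 612 to 771 CPM, with 1 of 12 passing as lower. The 10 fat cell markers summed to 41.3 to 91.9 against 21.8 to 24.3 CPM, with 6 of 8 tested passing as higher. Bone-forming cell markers summed to 87.9 to 115 against 159.5 to 280 CPM, with 2 of 5 tested passing as lower, Mepe at 0 in both groups and Dmp1 at 0 in knockouts. Hypertrophic cartilage markers summed to 2872 to 5226 against 6787 to 9403 CPM, with 1 of 8 passing as higher and 1 as lower. Most of this sum was Spp1, the gene that passed as lower, at a mean of 3835 against 7713 CPM. Col10a1 was the gene that passed as higher, at 280 against 86.5 CPM (edgeR adjusted p of 0.0118), so the sum does not describe all of these markers. Pericyte and smooth muscle markers summed to 487 to 571 against 338 to 379 CPM, with 1 of 6 tested passing as higher. Sums for muscle, endothelium, macrophages and red blood cells overlapped between the groups. The part of these shifts in the Igf2 value was not tested.

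**Figure D3:**
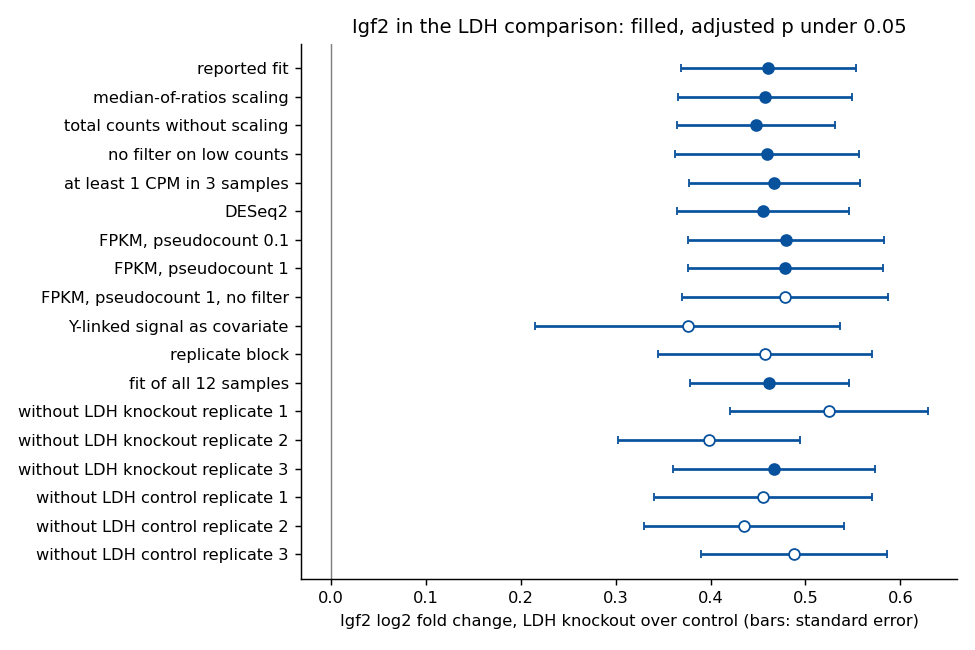
Log2 fold change of Igf2 in LDH knockouts over controls (x axis, bars are standard errors) in the reported fit and 17 alternatives (y axis). All values are positive, between 0.38 and 0.52, and the filled points mark the 9 alternatives and the reported fit in which the adjusted p was under 0.05.

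The signalling receptor gene Igf1r was at 90.3, 84.4 and 78.0 CPM in the LDH knockouts against 71.2, 74.5 and 60.8 CPM in controls. The groups did not overlap, at 0.29 ± 0.09 (log2 ± SE), but the edgeR adjusted p of 0.131 missed the threshold. Igfbp7 was at 113, 146 and 93.12 CPM in knockouts and 82.7, 64.6 and 93.06 CPM in controls. The difference of 0.55 ± 0.17 (log2 ± SE) did not pass either (edgeR adjusted p of 0.121). Over 17 alternatives its difference ran from 0.16 to 0.69 and its adjusted p from 0.0188 to 0.847. The lowest value came with the Y-linked signal as a covariate, and without knockout replicate 2 it was 0.36. It passed without knockout replicate 3, with 0.69 and an adjusted p of 0.0337, and with DESeq2, with an adjusted p of 0.0188. Control replicate 3, the control with little Y-linked signal, lay below knockout replicates 1 and 2 and only just below knockout replicate 3, and the part of sex in the Igfbp7 value was not tested. Igfbp7 overlaps Polr2b in the RefSeq gene list, and Igf1, Igf2, Igf1r and Igf2r overlap noncoding genes there, among them Igf2os and Airn. Whether counting used strand is not given, so reads of such overlaps cannot be told apart and these counts are uncertain to that extent.

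The other members overlapped between LDH knockouts and controls. Igf2r differed by 0.06 ± 0.09 (log2 ± SE), and Igfbp3, Igfbp4, Igfbp5 and Igfbp6 had -0.20, -0.11, -0.07 and 0.04 with standard errors of 0.12 to 0.18. Igf1, at 3.30 ± 1.04 CPM against 2.95 ± 1.32 CPM (SD, n = 3), had 0.16 with a standard error of 0.34. Igfbp2, at 0.272 ± 0.00287 and 0.370 ± 0.191 CPM, lay near the floor and was not tested here. As a ratio of TPM, Igf2 exceeded the summed binding proteins 2.15 ± 0.109 times in knockouts and 1.66 ± 0.185 times in controls, with ranges of 2.03 to 2.22 and 1.46 to 1.81 that did not overlap. Among the binding protein genes, Igfbp7 held 38.8% ± 7.67 of the summed TPM in knockouts and Igfbp4 51.6% ± 7.28, against 29.0% ± 5.58 and 60.2% ± 6.01 in controls, with overlapping ranges for both.

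**Figure D4:**
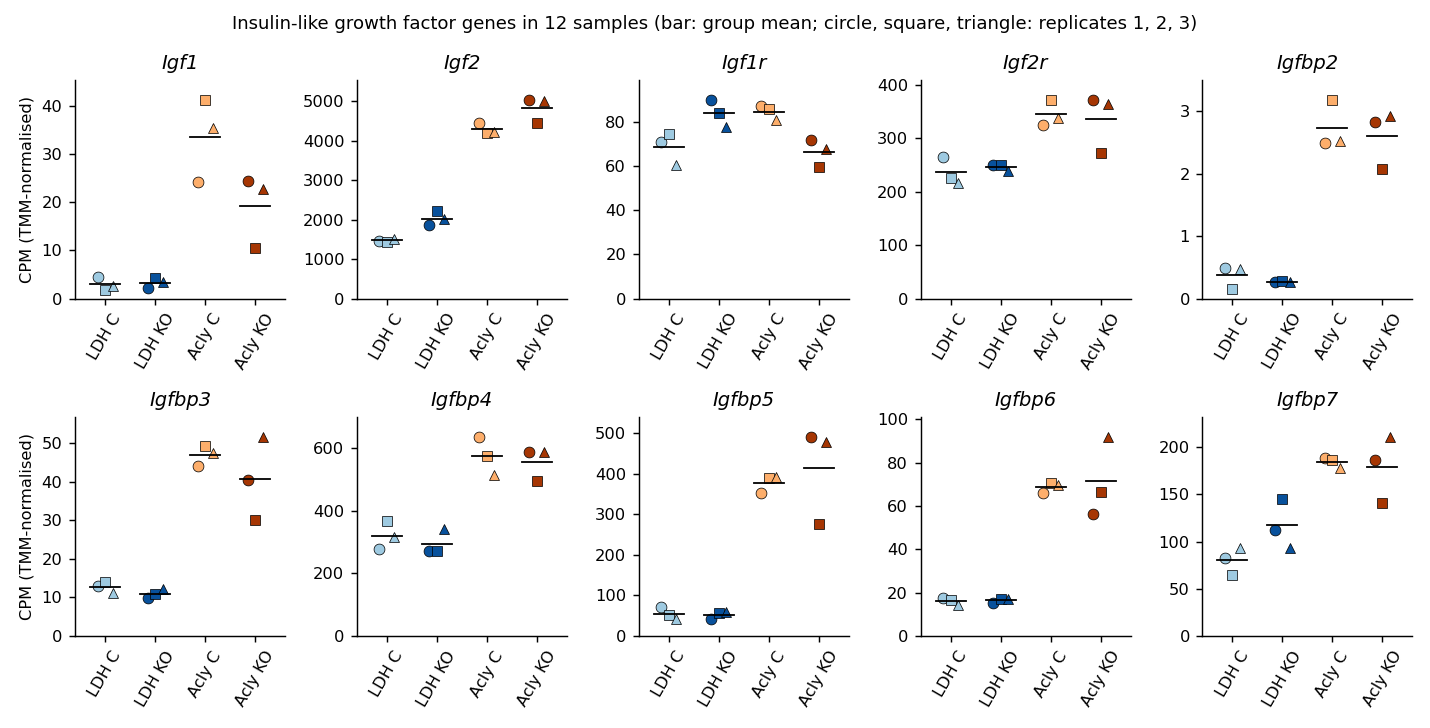
CPM (y axis, linear from 0) of the 10 members in LDH controls, LDH knockouts, Acly controls and Acly knockouts (x axis, C control, KO knockout), with each sample as a point and the group mean as a bar. Igf2 lies at 1860 to 2207 CPM in LDH knockouts against 1431 to 1520 CPM in controls, and Igf1r is higher than controls in the LDH set and lower than controls in the Acly set.

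In Acly knockouts at E18.5, 0 of the 10 members passed by edgeR, where 0.136% of 13973 genes passed in either direction. DESeq2 gave 0 members as well, where 1.84% of all genes passed, and 2 members, Igf1 and Igf1r, had an unadjusted p under 0.05, as did 15.8% of all genes. Igf2 was higher without overlap, as were 9.68% of all genes, and Igf1r was lower without overlap, as were 12.4%. The median log2 fold change was -0.03 over the members and -0.0018 over all genes.

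Igf1r was at 71.8, 59.6 and 68.1 CPM in Acly knockout replicates 1 to 3, while it stood at 87.3, 86.0 and 81.0 CPM in control replicates 1 to 3. All knockouts were below all controls. The difference was -0.34 ± 0.09 (log2 ± SE; edgeR adjusted p of 0.222). Igf2 was at 5041, 4457 and 5006 CPM in knockouts and 4451, 4200 and 4215 CPM in controls. Knockout replicate 2 exceeded the highest control by a narrow margin, and the difference was 0.19 ± 0.09 (log2 ± SE; edgeR adjusted p of 0.335). For both genes the two-sided exact permutation p was 0.1, the smallest possible.

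Igf1 was at 24.5, 10.5 and 22.7 CPM in the Acly knockouts against 24.2, 41.4 and 35.5 CPM in controls. The groups overlapped, and the difference was -0.80 ± 0.30 (log2 ± SE; edgeR adjusted p of 0.274). Without knockout replicate 2, the lowest sample, it was -0.51 with a standard error of 0.18. That sample was also the lowest Acly knockout for 9 of the 10 members; Igfbp6 was the exception. Without it, Igfbp5 stood at 0.36 ± 0.09 (log2 ± SE; edgeR adjusted p of 0.0887), against 0.14 ± 0.19 in all samples. In Acly knockout replicate 2 the 12 fibroblast and perichondrium markers summed to 1053 CPM. The other Acly knockouts had 2456 and 2516 CPM, and controls 2687 to 3239 CPM. All Acly knockouts thus lay below all controls in this sum, while 0 of the 12 markers passed by edgeR. Also lowest among Acly knockouts were the sums of replicate 2 for bone-forming cells (545 CPM), skeletal muscle (202 CPM) and macrophages (157 CPM). The other Acly knockouts had at least 1171, 328 and 181 CPM for these. Its sums for cartilage, hypertrophic cartilage, fat cells, endothelium, pericytes and red blood cells were not the lowest. The part of any of these cell types in the Igf1 and Igfbp5 values was not tested.

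The remaining members overlapped with their controls. Igf2r, Igfbp2, Igfbp4 and Igfbp7 had log2 fold changes between -0.05 and -0.02, and Igfbp3 and Igfbp6 had -0.19 and 0.07, with standard errors of 0.11 to 0.22. Cartilage markers summed to 13788 to 16235 CPM in the Acly knockouts against 8264 to 8974 CPM in controls, with 2 of 12 passing as higher. Hypertrophic cartilage markers summed to 4687 to 6522.5 against 6575 to 9582 CPM, with 1 of 8 passing as higher and 0 as lower. Most of this sum was again Spp1, at a mean of 5108 against 7262 CPM, which did not pass (edgeR adjusted p of 0.289). Col10a1 was the gene that passed as higher, at 51.1 against 25.4 CPM (edgeR adjusted p of 0.0314). As a ratio of TPM, Igf2 exceeded the summed binding proteins 2.63 ± 0.335 times in knockouts and 2.11 ± 0.0294 times in controls, and the lowest knockout, at 2.34, was above the highest control, at 2.14. The ratio of Igf2r to Igf1r was 6.70 ± 0.477 in knockouts and 5.45 ± 0.381 in controls, with ranges of 6.16 to 7.08 and 5.02 to 5.76. In the LDH set the ratio was 3.92 ± 0.188 in knockouts and 4.57 ± 0.489 in controls, and the ranges overlapped. These ratios are descriptions with no test.

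The effects of both knockouts were then compared with an interaction test, in which the deleted gene cannot be told apart from age. By edgeR 0 of the 10 members passed, where 0.161% of 14251 genes passed, while 3 members had an unadjusted p under 0.05, as did 13.0% of all genes. Igf1r came closest. Its effect was 0.64 (log2) more positive in the LDH knockout, at an SE of 0.14 and an adjusted p of 0.0922 in edgeR, and it ranked 55 by p among all genes. Over 22 alternatives its adjusted p ran from 0.00591 to 0.306. It passed without LDH knockout replicate 3 (0.70, adjusted p of 0.0416) and with DESeq2 (adjusted p of 0.00591), as did 1.54% of all genes there. Igfbp7, Igf2 and Igf1 had differences of 0.59, 0.29 and 0.97 with standard errors of 0.25, 0.12 and 0.51 and edgeR adjusted p of 0.338, 0.333 and 0.436.

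**Figure D5:**
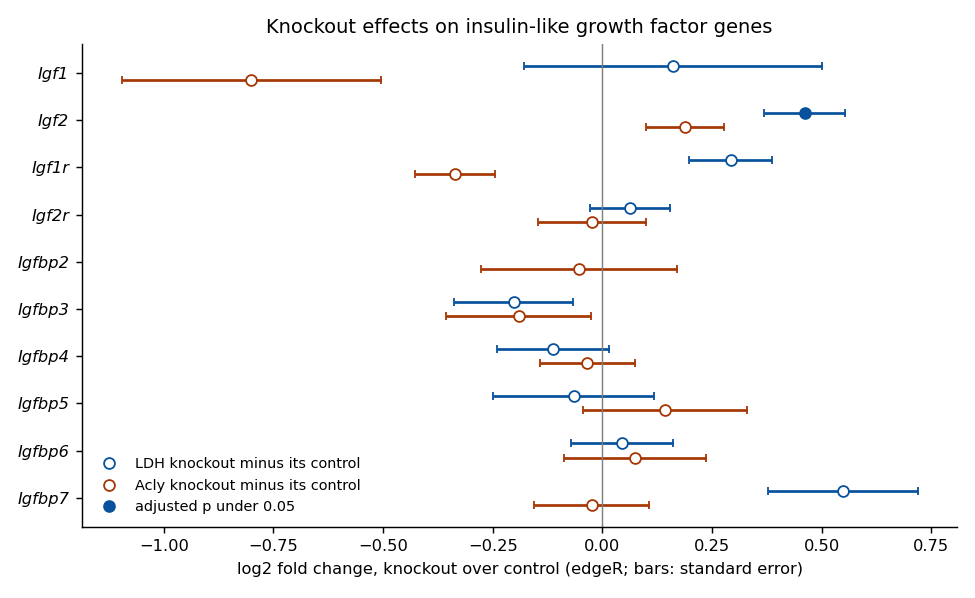
Log2 fold change of each knockout over its own control (x axis, bars are standard errors) for the 10 members (y axis); Igfbp2 was not tested in the LDH comparison. Igf2 in the LDH comparison is the filled point (adjusted p under 0.05), and Igf1r lies at 0.29 in the LDH and -0.34 in the Acly comparison.

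Other genes of the pathway were taken from 6 lists. Their counts stand beside the shares of all genes, of which 1.43% passed as higher and 1.07% as lower in the LDH comparison and 0.136% passed in the Acly comparison, with 19.6% and 15.8% at an unadjusted p under 0.05. Of 6 tested genes for other ligands, receptors and binding proteins, 0 passed in either knockout comparison by edgeR, with 1 and 2 at an unadjusted p under 0.05 in the LDH and Acly comparisons. The growth hormone receptor gene Ghr, which lies upstream of Igf1 in the hormone axis, was at 13.9 ± 1.36 against 10.2 ± 1.67 CPM in the LDH comparison (log2 fold change of 0.45, edgeR adjusted p of 0.138). Igf2bp1, which encodes an RNA-binding protein that attaches to Igf2 transcripts, was at 29.9 ± 2.97 against 37.6 ± 1.03 CPM in the Acly comparison (-0.31, edgeR adjusted p of 0.244).

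Among 14 genes for proteases that cut binding proteins and for their inhibitors, 0 of 14 tested passed in the LDH and 0 of 13 in the Acly comparison by edgeR, with 6 and 3 at an unadjusted p under 0.05 (19.6% and 15.8% of all genes). The collagenase gene Mmp13 was at 58.4 ± 11.7 CPM in the Acly knockouts against 125 ± 22.9 CPM in controls, a difference of -1.09 ± 0.17. It missed the threshold (edgeR adjusted p of 0.0694, and 1.46e-07 to 0.359 over 17 alternatives) and passed without Acly knockout replicate 2 (adjusted p of 0.0186). The membrane protease gene Mmp14 was at 99.6 ± 0.700 against 122 ± 10.8 CPM in the LDH comparison (-0.30, edgeR adjusted p of 0.0893).

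Of 14 receptor adaptors and negative regulators 0 passed in either comparison by edgeR, with 4 at an unadjusted p under 0.05 in each. Socs2 and Socs3, which encode inhibitors of cytokine and growth hormone signalling, were lower without overlap in Acly knockouts. Socs2 was at 59.6 ± 2.80 against 82.3 ± 6.58 CPM (-0.45, edgeR adjusted p of 0.157), and without Acly knockout replicate 2 it passed with -0.49 and an adjusted p of 0.0474. Socs3 was at 62.0 ± 4.49 against 82.2 ± 4.20 CPM (-0.39, edgeR adjusted p of 0.167). In LDH knockouts Socs2 was lower without overlap as well (-0.29, edgeR adjusted p of 0.114), while Socs3 overlapped (0.11). In the PI3K, AKT and mTOR arm, the main intracellular route from the receptor, 0 of 24 genes passed in either comparison by edgeR, with 6 at an unadjusted p under 0.05 in each. The lipid phosphatase gene Inpp4b was at 9.27 ± 1.01 against 17.2 ± 4.12 CPM in the Acly comparison (-0.87, edgeR adjusted p of 0.164). It was also lower without overlap in the LDH comparison (-0.57, edgeR adjusted p of 0.123). The mTOR activator gene Rheb was at 112 ± 1.48 against 135 ± 6.16 CPM in the LDH comparison (-0.27, edgeR adjusted p of 0.0756). Its values overlapped in the Acly comparison.

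FoxO transcription factors are kept out of the nucleus by signalling from the receptor. Of the FoxO list, 1 of 14 tested genes passed in the LDH comparison, as lower, and 0 of 15 in the Acly comparison by edgeR. At an unadjusted p under 0.05 there were 2 and 3. The gene was Fbxo32, a ubiquitin ligase subunit and FoxO target, at 4.24, 5.08 and 8.12 CPM in the LDH knockouts against 10.4, 12.4 and 11.98 CPM in controls. All knockouts lay below all controls, by -0.997 ± 0.22 (log2 ± SE; edgeR adjusted p of 0.0493). The call was lost without knockout replicates 1 or 2 (adjusted p of 0.164 and 0.172) and without control replicates 1, 2 or 3 (0.0889, 0.123 and 0.116). It held in 7 of 17 alternatives, and in 6 of the 11 that left no sample out. Over the 17 the difference ran from -1.31 to -0.54 (log2), and the adjusted p (edgeR, DESeq2 or limma) from 0.000477 to 0.344. The FoxO factor genes did not pass in either knockout comparison.

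The CCN proteins carry a domain that resembles the binding proteins. Of these 6 genes, 1 passed as higher in the LDH comparison and 0 in the Acly comparison by edgeR, with 3 at an unadjusted p under 0.05 in each, beside 1.43% of all genes passing as higher in the LDH comparison and 19.6% and 15.8% at that unadjusted p. Ctgf (Ccn2), a matrix-associated growth regulator of cartilage, was at 555, 557 and 382 CPM in the LDH knockouts against 203, 195 and 214 CPM in controls. The knockouts lay well above the controls, by 1.29 ± 0.14 (log2 ± SE; edgeR adjusted p of 0.00357). It passed whichever library was left out, and not with the Y-linked signal as a covariate (adjusted p of 0.283). In the Acly comparison Ctgf was at 98.1 ± 23.8 against 77.6 ± 7.53 CPM and did not pass.

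Between the control groups the 6 lists were counted in the same way as the members. Of the 24 PI3K, AKT and mTOR genes 8 passed as higher and 6 as lower in Acly controls, and of the 15 FoxO genes 8 and 7 did, where 29.4% and 25.7% of all genes passed. The protease list had 10 of 14 higher and 1 lower. Median log2 differences of these 3 lists were -0.01, 0.41 and 1.49, beside 1.72 for the members. Of the 6 other ligand, receptor and binding protein genes 4 passed as higher and 0 as lower, of the 14 adaptors 3 and 5, and of the 6 CCN genes 2 and 2.

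To name genes with a similar pattern, Pearson's r was taken over the 12 samples after each gene was centred on the mean of its age set. Candidates were the genes averaging 5 CPM or more, 10571 for each member except Igfbp2 with 10572. The 12 points share libraries and groups, so these values are a description. Closest to Igf2 were Wnk4 (r = 0.969) and Cytl1 (0.961), and closest to Igf1r were Lars2 (0.958) and Sox5 (0.945). Closest to Igf1 were Lrp12 (0.914) and Chsy3 (0.909). For Igf2r these were Fbn2 (0.963) and Spag5 (0.956), and for Igfbp2 Ptk7 (0.868) and Penk (0.836). Igfbp3 came with Shroom4 (0.954) and Ttll4 (0.936), Igfbp4 with Dusp4 (0.892) and Ecel1 (0.846), Igfbp5 with Celf2 (0.912) and Nadk2 (0.907), and Igfbp6 with Dusp22 (0.908) and L1cam (0.795). Among the members themselves the closest pairs were Igf2r and Igfbp5 (0.790) and Igf2 and Igfbp7 (0.759).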

How the data were processed

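The authors deposited 1 table of 17922 genes that holds, per the file headers, a read count, an FPKM and a TPM value for each of 12 samples, and 12 group averages, left aside. Not whole were 7.32% to 8.16% of the values in a sample's deposited count column, so the authors' deposited values were handled here like expected counts, estimated per gene by a program that is not given, and rounded. HISAT2 2.0.4 and the build mm9 are named in the submitters' processing notes; the counting program, annotation and use of strand are not given in the sources used here. FPKM values of the authors served for alternative tests, and deposited TPM values for levels between genes.

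Counts were tested with edgeR 4.0.16 in R 4.3.3 (TMM, filterByExpr, two-sided quasi-likelihood F tests, Benjamini-Hochberg adjustment over all tested genes, threshold 0.05). Each knockout was tested in its own 6 samples, and the control groups and the interaction in all 12. The standard error is the log2 fold change divided by the square root of F. Scripts were tested on simulated data. DESeq2 1.42.0 and limma 3.58.1 served as alternatives, with other scalings, filters, a Y-linked covariate, a replicate block and each sample left out. The 10 members, the gene lists and the tests were chosen with earlier results of these data known. All members are named. From each pathway list, genes that passed in a knockout comparison are named, or otherwise the 2 genes with the lowest p in either. Promoter windows come from RefSeq (GRCm38.p6), a build other than mm9, and all 10 members matched. RefSeq identifiers restored 26 symbols that had become dates. The genes with a pattern most like that of Igfbp7 are not reported here.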

Additional observations from a re-analysis of the deposited data

Results flagged for a closer look

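Igf1r was picked out because its values moved in opposite directions in both knockouts: all 3 LDH knockouts lay above all 3 of their controls, and all 3 Acly knockouts lay below all 3 of theirs. The difference between both effects was 0.64 (log2) with a standard error of 0.14, and by edgeR's interaction test its adjusted p was 0.0922, which misses the threshold.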

How the results depend on the processing

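All 10 members stayed higher in Acly than in LDH controls under every alternative run, though Igf1r did not pass without LDH control replicate 3, and 0 members passed in the Acly comparison under any of them. In the LDH comparison the number of members that passed, 1 as reported, was 2 with DESeq2, 0 with FPKM without a filter, 0 with the Y-linked covariate and 0 to 2 with a library left out. For the interaction it was 1 with DESeq2 and 0 to 1 with a library left out. Over all genes the LDH count of 332 became 862 with DESeq2, 28 with FPKM without a filter and 3 with the Y-linked covariate. It was 100, 106 and 1068 without knockout replicates 1 to 3 and 132, 154 and 95 without control replicates 1 to 3. The Acly count of 19 became 11 without scaling, 32 without a filter, 253 with DESeq2, 3 with FPKM without a filter, 6 with the Y-linked covariate and 31 in the fit of all 12 samples. It was 6, 132 and 6 without knockout replicates 1 to 3 and 0, 1 and 0 without control replicates 1 to 3. The interaction count of 23 became 217 with DESeq2 and 6 with the Y-linked covariate. Without LDH knockout replicates 1 to 3 it was 8, 6 and 143, without LDH control replicates 16, 10 and 15, without Acly knockout replicates 23, 25 and 28, and without Acly control replicates 7, 11 and 5. The cause of these changes was not tested.

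With the replicate number as a block, Igf2 in the LDH comparison had 0.46 with an adjusted p of 0.0743, so that 0 members passed; over all genes 362, 8 and 5 passed in the LDH, Acly and interaction tests. Deviations of same-numbered samples correlated at 0.0491, -0.159 and 0.00639 in the LDH set and -1.99e-04, -0.216 and -0.223 in the Acly set. With 3 samples in a group, these values cannot decide whether same-numbered samples were paired. Only replicate 1 of the LDH set correlated best with its own number. The block ended no other call on a named gene. No paired analysis was possible for the control groups because they come from different lines.

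Members that did not pass changed sign as follows. With the Y-linked covariate Igfbp3 and Igfbp5 had 0.095 and 0.53 in the LDH comparison. On FPKM values Igfbp6 had -0.0093 with a pseudocount of 0.1, and -0.0087 with a pseudocount of 1 with and without a filter, in the Acly comparison. With a library left out, the ranges in the LDH comparison were -0.10 to 0.57 for Igf1, -0.23 to 0.16 for Igfbp5 and -0.032 to 0.10 for Igfbp6. In the Acly comparison they were -0.093 to 0.10 for Igf2r, -0.14 to 0.079 for Igfbp2, -0.11 to 0.042 for Igfbp4, -0.14 to 0.23 for Igfbp6 and -0.15 to 0.11 for Igfbp7. With 1 sample of a group fewer, the spread rests on 5 samples or, in the joint fits, 11. At this depth Igfbp2 at P5 lies near the floor, where small differences could not be shown.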
